A study of Mus musculus with 4 samples.

Results

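The differentiation of mouse embryonic stem (ES) cells with retinoic acid (RA) was followed in cells that carry a control shRNA of scrambled sequence. Of the 25697 probes of the Illumina bead array, 12804 were detected in these cells in at least 1 of the 2 states (detection p-value under 0.01). Each gene was represented by 1 probe, and for 9509 of the 17876 genes on the array that probe was detected. The comparison set 1 array of RA-treated scramble cells against 1 array of undifferentiated scramble cells, 2 of the 4 arrays of the study. The cells of every group were E14, an established mouse ES cell line, stably infected with a virus that expresses an shRNA, so that the control cells carry a viral insert too. Undifferentiated cells grew on 0.1% gelatin with LIF, the cytokine that holds ES cells in self-renewal. RA-treated cells spent 4 days off LIF, followed by a monolayer phase of 4 days with all-trans RA at 1 µM. The other 2 arrays hold the same pair of conditions in cells with an shRNA against AKAP95 (gene Akap8) and are used here as a second pair that shares no array with the first and is no replicate of it.

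With 1 array a group there is no spread between replicates and no p-value, and every statement is on sizes alone. The loss of LIF, the RA and the time in culture went together, and what each of them did cannot be told apart. In these mixed cultures, fewer cells of a type and less RNA per cell cannot be told apart either. Probes were detected in similar numbers before (11348, 44.2%) and after RA (11817, 46.0%), and the median signal was 75.5 and 82.8. The detection threshold lay between signals of 85.8 and 85.9 before RA and at 91.3 after it. Akap8, which the scramble shRNA does not target, read 272 before and 297 after RA (log2 difference -0.22). The undifferentiated array carried the defining markers of ES cells: Pou5f1, Nanog and Sox2 were detected there, at 7323, 11239 and 655.

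Retinoic acid enters the nucleus and binds RA receptors, which sit as partners of RXR proteins on paired hexamer sites in DNA and switch from repression to activation of the gene nearby. Among the known direct targets are the gene of the receptor RAR beta, the Cyp26 enzymes that degrade RA, and the 3' members of the Hox clusters, which give cells a position along the body axis. ES cells deprived of LIF and given RA leave the pluripotent state, and in monolayer they are known to form neural progenitors of hindbrain and spinal cord character along with other cell types. Signals below are bead intensities as deposited, not normalized between arrays, and cannot be compared between probes. For 1 probe, a small difference in signal across arrays can change direction after normalization, as it did for Akap8. Folds and log2 differences were taken after background correction and quantile normalization, so they do not equal the ratio of the signals. A fold written "at least" is a bound, given where a gene was detected on 1 of the 2 arrays, and it holds for this background correction and normalization.

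Rarb, the gene of the receptor RAR beta, read 55.3 before and 2232 after RA, at least 46.7-fold higher. It lies on chromosome 14, and its promoter shows the kind of site through which RA acts. The sequence below is the RefSeq promoter (GRCm38.p6, chr14:16575477-16575726, minus strand), from 250 bases upstream up to the transcript start. In capitals are both hexamers of a direct repeat with a spacer of 5 bases (DR5), at -53 to -37 from the start.
Rarb promoter: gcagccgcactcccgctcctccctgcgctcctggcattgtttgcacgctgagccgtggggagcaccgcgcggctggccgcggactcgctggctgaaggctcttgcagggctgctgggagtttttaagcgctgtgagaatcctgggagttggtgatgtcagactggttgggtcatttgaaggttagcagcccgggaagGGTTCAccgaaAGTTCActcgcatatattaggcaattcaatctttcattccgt
Cyp26a1, which encodes an RA-degrading enzyme and lies on chromosome 19, read 59.2 before and 212 after RA, at least 3.20-fold higher. Its window has the same arrangement on the opposite strand, at -32 to -16 (chr19:37697770-37697799, plus strand, GRCm38.p6, RefSeq), with the hexamers in capitals.
Cyp26a1 site: taaagaTGAACTttgggTGAACTaatttgt
The motif searched was a pair of the hexamers GGTTCA or AGTTCA or GGGTCA or AGGTCA in the same direction, 5 bases apart, on both strands, between 250 bases before and 50 bases after each start. It was found in 32 of 32851 windows (0.0974%). Of the genes higher by at least 2-fold that have such a window, 2 of 1007 held it, the pair shown. None of 843 lower genes did, and of the 5686 genes not past 2-fold 1 did, Blvrb, with a log2 difference of -0.30. With a spacer of 2 bases the repeat was in 1 of 1007 higher, 1 of 843 lower and 6 of 5686 other genes, and 88 of all windows (0.268%). A match is a description of letters, and a window without one says nothing of the receptor.

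Of the machinery that carries, makes, senses and degrades RA, the larger part was higher. In this list 11 of 21 genes compared were at least 2-fold higher and 3 lower, with a median log2 difference of 1.23. A gene can stand in more than 1 of the lists described here. Among all genes compared, 14.2% were higher and 11.8% lower, and the median was -0.03. Of the 21 genes, 11 were detected after RA alone, and a gene seen on that side alone could hardly come out as lower. The median of this list ran from 0.63 to 1.82 over the alternative settings. Of the binding proteins, most of those named here were higher. Crabp2, which hands RA to its receptors, read 81.5 before and 1127 after RA, at least 21.7-fold higher. Crabp1, its relative in the cytoplasm, read 206 before and 1008 after RA, 4.72-fold higher. Stra6, the membrane receptor for the retinol carrier, read 73.7 before and 906 after RA, at least 17.0-fold higher. Crabp2, Crabp1 and Stra6 were thus all higher, while the binding protein gene Rbp7, given below, was lower. Rbp4, the gene of the retinol carrier, was detected on neither array. Of the enzymes, Aldh1a1, which oxidizes retinal to RA, read 49.0 before and 399.6 after RA, at least 6.93-fold higher. Cyp26b1, a second RA-degrading enzyme, read 78.2 before and 247 after RA, at least 3.90-fold higher. Stra8, named for its induction by RA and needed for meiosis in germ cells, read 93.5 before and 493 after RA, 7.42-fold higher. The receptors split. Unlike Rarb, Rarg, the RAR form prominent in ES cells, read 315 before and 142 after RA, 3.58-fold lower, and Rxra, a partner receptor, read 302 before and 176 after RA, 2.53-fold lower, which came under 2-fold with the deposited median-normalized values. Rbp7, a retinol-binding protein, read 218 before and 70.9 after RA, at least 4.83-fold lower. The partner receptor Rxrb did not pass 2-fold, at 722 and 1045. In the knockdown pair 10 higher and 3 lower of 19 were past 2-fold, and Rarb and Stra6 had log2 differences of 4.89 (a bound) and 3.05 (a bound) there.

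**Figure D1:**
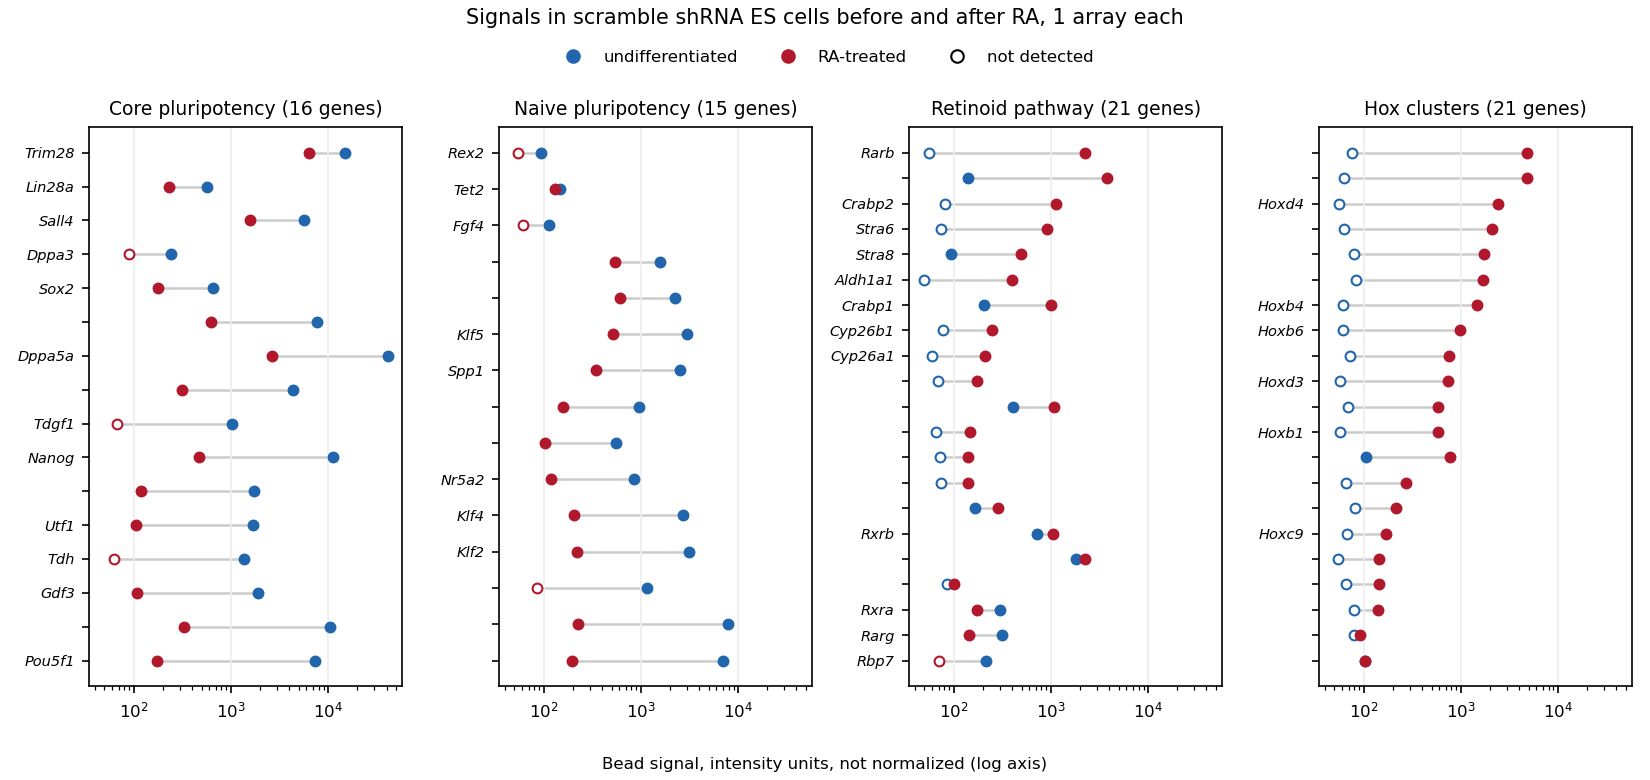
Bead signal (intensity units, log axis, not normalized) of every gene compared in 4 lists, in undifferentiated (blue) and RA-treated (red) scramble cells, with 1 array each and open circles where a gene was not detected. Genes that the text does not name carry no label. All 16 core pluripotency genes lie lower after RA, while 19 of 21 Hox genes were detected after RA alone.

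Over all 9509 genes, 1352 were higher and 1118 lower after RA by at least 2-fold, 396 and 319 of them by at least 4-fold and 58 and 48 by at least 16-fold. Most genes were detected in both states (7801, 82.0%), while 1053 were detected after RA alone and 655 before RA alone. Of the 1053, 332 passed 2-fold as a bound, and of the 655, 264 did. In the knockdown pair 12.4% of 9530 genes were higher and 9.81% lower. The larger a difference in scramble cells, the more often it passed 2-fold the same way in that second pair. Among genes higher by 2 to 4-fold, 58.4% of the 938 compared there did so, then 88.2% of 255 at 4 to 8-fold, 95% of 80 at 8 to 16-fold and 96.6% of 58 above that. For lower genes the shares were 56.0%, 84.6%, 96.1% and 100% of 795, 195, 76 and 48 genes. Probes of 1 gene gave a second yardstick, of disagreement between probes alone. They were read on the same 2 arrays and say nothing of the spread between cultures. Over the 2436 genes with more than 1 detected probe, the median gap between their highest and lowest log2 difference was 0.31. The 90th percentile of that gap was 1.03. In 463 of these genes some probes passed 2-fold and others did not, while in 364 all passed it the same way.

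**Figure D2:**
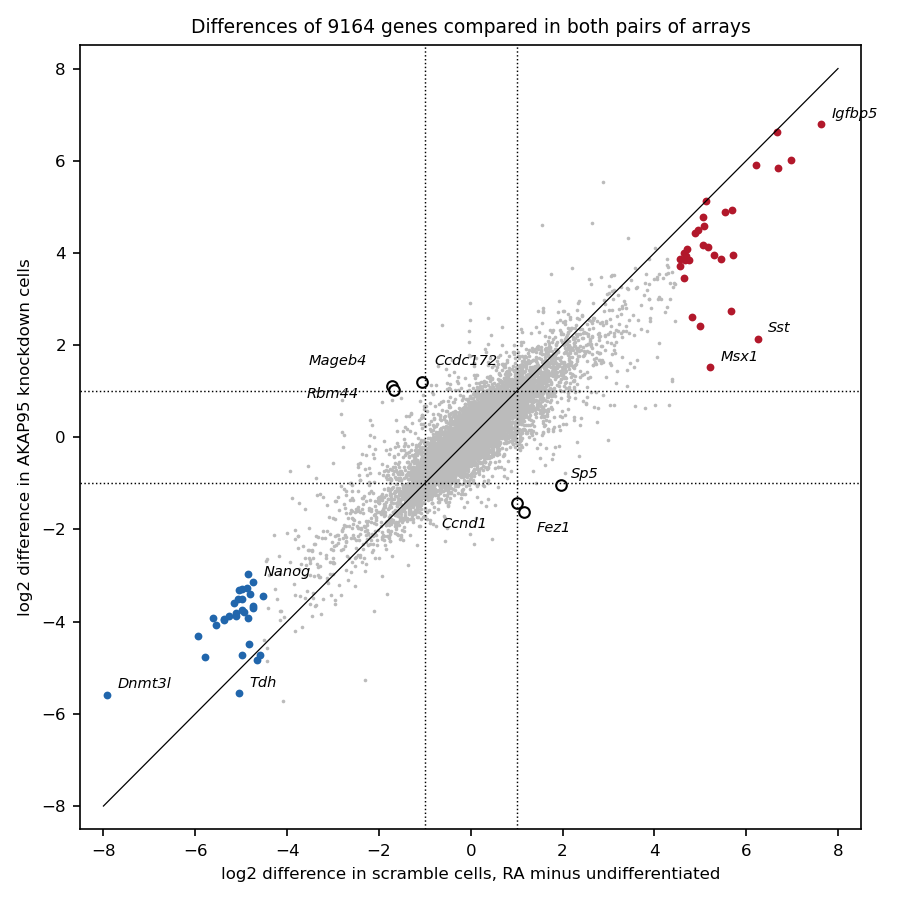
Log2 difference after RA of 9164 genes compared in both pairs of arrays, scramble cells on the x axis and knockdown cells on the y axis, with the 30 largest increases in red, the 30 largest decreases in blue, dotted lines at 2-fold and a solid line where both pairs are equal. All of these lie past 2-fold in the same direction in both pairs, and the 6 genes circled lie past it in opposite directions.

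The 30 largest increases ran from a log2 difference of 4.55 to 7.63, and all 30 passed 2-fold in the knockdown pair too. Of these, 17 were not detected before RA. Beside the Hox and retinoid genes, they included the following. Ccnd2, the gene of cyclin D2, which drives cells through G1, read 315 before and 12149.8 after RA, 39.1-fold higher. Nrep, a neuronal regeneration protein, read 452 before and 13825 after RA, 31-fold higher. Ptn, which encodes the growth factor pleiotrophin, read 64.9 before and 1422 after RA, at least 28.2-fold higher. Igdcc3, an immunoglobulin-family membrane protein, read 307 before and 7359 after RA, 24.9-fold higher. Signals of these genes were thus at or near the array's background before RA, or had a clear start level as for Ccnd2, Nrep and Igdcc3. Cldn11, a tight junction claudin, read 73.7 before and 1647 after RA, at least 33.4-fold higher. Capn6, a calpain without protease activity, read 95.7 before and 1636 after RA, 26.4-fold higher. Aldh1a7, a relative of Aldh1a1, read 57.9 before and 1306 after RA, at least 25.8-fold higher, and since its sequence is close to that of Aldh1a1, the probe may share signal with it. Cyp1b1, a cytochrome P450 that can oxidize retinoids, read 86.6 before and 1282 after RA, 24.8-fold higher. Pdzrn3, a ubiquitin ligase, read 134 before and 2523 after RA, 23.6-fold higher. Lbh, a transcription cofactor of limb bud and heart, read 109 before and 1842 after RA, 23.5-fold higher.

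The 30 largest decreases ran from -4.52 to -7.93 on the log2 scale, and all 30 passed 2-fold in the knockdown pair. All 30 were detected before RA, and 23 of them were still detected after it, at low signals. Trh, the gene of thyrotropin-releasing hormone, read 4213 before and 176 after RA, 34.9-fold lower. Pla2g1b, a secreted phospholipase, read 2035 before and 109 after RA, 34.7-fold lower. Eras, a Ras protein of ES cells, read 1178 before and 77.7 after RA, at least 28.7-fold lower. Laptm5, a lysosomal membrane protein known from blood cells, read 3473 before and 169 after RA, 30.6-fold lower. These genes differ in role. Ooep and Khdc3, which belong to the maternal complex of the egg cortex, were lower together. Ooep read 6823 before and 294 after RA, 28.7-fold lower, and Khdc3, just outside the 30, read 911 before and 79.6 after RA, at least 22.7-fold lower. Tcf15, a bHLH factor linked to the exit from naive pluripotency, read 971 before and 88.4 after RA, at least 24.1-fold lower. Zscan10, a zinc finger factor of ES cells, read 1235 before and 97.4 after RA, 26.8-fold lower. Cobl, an actin nucleator, read 1960.3 before and 140.2 after RA, 23-fold lower. Gm20767, BC147527, BB287469, Gm5662 and AF067061, also among the 30, for which no role is given here, had log2 differences of -4.98, -4.98 (a bound), -4.87, -5.37 and -4.81. Khdc3 was chosen after its values were seen.

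All 16 core pluripotency genes compared were lower after RA by at least 2-fold, with a median log2 difference of -4.41, against 11.8% of all genes. They spanned from -5.93 to -1.15, and 3 of the 16 were detected before RA alone. Within this list the decreases were uneven. Sox2, a partner of Oct4 that neural progenitors also use, read 655 before and 179 after RA, 5.63-fold lower. Sall4, a zinc finger factor of the same network, read 5704 before and 1570.2 after RA, 3.71-fold lower, and remained well detected. Lin28a, which blocks let-7 maturation, read 572 before and 229 after RA, 3.55-fold lower. Trim28, a corepressor present in most cells, read 15007 before and 6353 after RA, 2.21-fold lower, the smallest decrease of the list. Dppa5a, an RNA-binding protein of early embryos, read 41311 before and 2649 after RA, 16.1-fold lower, so that its probe still gave a high signal. At the other end Tdgf1, a co-receptor for Nodal, read 1019 before and 67.0 after RA, at least 25.3-fold lower, and Utf1, a chromatin protein of ES cells, read 1707 before and 106 after RA, 31.4-fold lower. Of 15 naive pluripotency genes, 12 were lower and 0 higher, with a median of -3.33, and 3 were detected before RA alone. The Krüppel-like factor genes Klf2, Klf4 and Klf5, which sustain self-renewal, had log2 differences of -4.28, -4.22 and -2.71. Klf4, a target of LIF signalling, read 2729.7 before and 204 after RA, 18.6-fold lower. Nr5a2, an orphan receptor that can replace Oct4 in reprogramming, read 845 before and 118 after RA, 13.3-fold lower. Spp1, which encodes osteopontin, read 2513 before and 341 after RA, 9.36-fold lower. Tet2, Fgf4 and Rex2 did not pass 2-fold. In the knockdown pair 14 of 16 core and 13 of 15 naive genes were lower by 2-fold, with medians of -3.23 and -2.86.

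The formative and primed epiblast list, for the state that follows the naive one in the embryo, was lower in part: 2 of 12 genes compared were at least 2-fold higher and 5 lower, with a median log2 difference of -0.88. Otx2, a factor of epiblast and forebrain, read 1245 before and 204 after RA, 8.94-fold lower. Dnmt3b, a de novo DNA methyltransferase of the epiblast, read 4945 before and 1182 after RA, 4.48-fold lower. Etv5, an ETS factor downstream of FGF, read 414 before and 104 after RA, 7.78-fold lower. Pou3f1 was lower as well (175 and 98.0), though under 2-fold with the deposited median-normalized values. The higher members were Sall2 and Krt18. Sall2, a zinc finger factor, read 148 before and 962 after RA, 6.99-fold higher. T and Cer1, markers of the primitive streak and anterior endoderm, and Foxd3 were detected on neither array.

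A small share of ES cells in culture passes through a state that resembles the 2-cell embryo, and the genes of that state were lower after RA. Of 11 genes compared 9 were lower and 0 higher, with a median of -2.95. Of these 11, 4 were detected before RA alone, and a gene seen on that side alone could hardly come out as higher. Zscan4c, which acts at telomeres in these cells, read 4813 before and 192 after RA, 35.7-fold lower. Tcstv1 and Tcstv3, 2-cell-stage transcripts, were lower by similar sizes. Tcstv1 read 3251 before and 158 after RA, 31.5-fold lower, and Tcstv3 read 2807 before and 136 after RA, 33.5-fold lower. Tmem92, a membrane protein gene switched on in that state, read 1183 before and 119.7 after RA, 18.0-fold lower. Tdpoz4, which belongs to a family of early embryonic POZ genes, read 202 before and 50.8 after RA, at least 4.40-fold lower. These families have many near-identical copies, and a probe may take signal from more than 1 of them. Arg2, an arginase, read 399 before and 102 after RA, 7.71-fold lower. Eif1a, a translation factor with copies expressed at this stage, did not pass 2-fold (-0.97). In the knockdown pair 11 of 12 were lower.

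LIF acts through its receptor, the kinase Jak1 and the factor Stat3, and Stat3 switches on its own inhibitors. In this list 2 of 13 genes compared were at least 2-fold higher and 4 lower, with a median log2 difference of -0.48. Socs3, the feedback inhibitor that marks active Stat3, read 1682 before and 373 after RA, 5.75-fold lower. Socs2 read 2451 before and 932 after RA, 2.95-fold lower. Pim3, a kinase gene that Stat3 induces, read 3079.5 before and 1508 after RA, 2.12-fold lower. Junb, a factor of the immediate response, read 369.7 before and 225 after RA, 2.28-fold lower, and was under 2-fold without background correction and with the deposited median-normalized values. Parts of the pathway itself were closer to their start levels. Stat3 read 873 before and 749 after RA, and Ptpn11, the phosphatase SHP2, 2170.0 and 3438. Jak2, a related kinase, read 183 before and 647 after RA, 3.41-fold higher. Cish, another inhibitor of cytokine signalling, read 144 before and 331 after RA, 2.19-fold higher, and was under 2-fold without background correction and with the larger offset.

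Nodal and FGF are the autocrine signals of ES cells, and their lists held genes on both sides. In the Nodal and TGF-beta list 9 of 19 genes compared were at least 2-fold higher and 7 lower. The median log2 difference was -0.09. Of the 19, 6 were detected before RA alone and 4 after RA alone. Nodal and several genes close to it were lower. Nodal itself read 459 before and 76.0 after RA, at least 11.1-fold lower. Its secreted inhibitors and targets were lower with it, as Lefty1 read 1272 before and 140.4 after RA, 15.2-fold lower, and Lefty2 read 610.2 before and 78.2 after RA, at least 14.9-fold lower. Gdf3, a ligand of the same receptors, read 1885 before and 109 after RA, 33.1-fold lower. Inhbb, an activin subunit, read 408 before and 68.8 after RA, at least 9.70-fold lower. Most genes of the TGF-beta ligands and receptors compared were higher. Tgfb2, a ligand, read 74.1 before and 428 after RA, at least 7.56-fold higher. Of its receptors, Tgfbr1 read 1103 before and 4227 after RA, 3.69-fold higher, and Tgfbr2 read 108 before and 411 after RA, 4.56-fold higher. Smad3, a signal transducer, read 141 before and 520.4 after RA, 3.91-fold higher. The ligand gene Tgfb1 was not among the higher genes and stood at -0.60 (a bound) on the log2 scale. Smad2 and Skil were close to their start levels, at -0.22 and -0.09 on the log2 scale. In the knockdown pair Lefty1 differed less (-0.74).

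In the FGF and ERK list 2 of 22 genes compared were at least 2-fold higher and 6 lower. Of the 22, 6 were detected before RA alone and 4 after RA alone. The median log2 difference was 0.03, so it had no firm sign and turned negative under 3 of the 10 alternative settings. The lower genes were ligands, targets and the gene of an FGF-binding protein. Fgf17, a ligand, read 587 before and 63.3 after RA, at least 14.3-fold lower. Etv4, an ETS factor that reports FGF activity, read 1499 before and 123 after RA, 21.7-fold lower. Spry4, a feedback inhibitor, read 213 before and 69.0 after RA, at least 4.71-fold lower. Fgfbp1, which releases FGF from the matrix, read 227 before and 80.3 after RA, at least 5.08-fold lower. The higher genes were Fgfr2 and Fgfbp3. Fgfr2, a receptor of epithelia and neural tissue, read 68.3 before and 224 after RA, at least 3.45-fold higher. Fgfbp3 read 89.6 before and 1141 after RA, 20.1-fold higher, but by only 0.70 on the log2 scale in the knockdown pair. Dusp6 and Egr1, which respond to ERK within minutes to hours, did not pass 2-fold (0.74 and -0.89).

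Wnt ligands, receptors and targets were often higher: 15 of 33 genes compared were at least 2-fold higher and 2 lower, with a median log2 difference of 0.78. Of all 33, 10 were detected after RA alone. Among the ligands Wnt5a, which signals mainly without beta-catenin and guides axis elongation, read 100.4 before and 1371 after RA, 19.7-fold higher. Wnt4 read 77.0 before and 273 after RA, at least 4.38-fold higher, Wnt6 read 76.3 before and 251 after RA, at least 3.97-fold higher, and Wnt1, a ligand of the dorsal neural tube, read 57.0 before and 269 after RA, at least 4.33-fold higher. Among the Frizzled receptors, Fzd2 read 99.6 before and 1057 after RA, 14.8-fold higher, and Fzd7, a receptor that ES cells also use, read 490.2 before and 1744 after RA, 3.29-fold higher. Fzd5 went the other way and read 1819 before and 239 after RA, 10.6-fold lower. Ror2, a receptor for Wnt5a, read 128 before and 391 after RA, 3.16-fold higher, and was chosen after its values were seen. Ror1, of the same list, was detected on neither array. The secreted antagonist Sfrp1 read 505 before and 3048 after RA, 5.91-fold higher, and Dkk3 read 168 before and 742 after RA, 4.47-fold higher. Axin2, a feedback target of beta-catenin, read 234 before and 896 after RA, 3.56-fold higher. Sp5, another target, read 109.9 before and 375 after RA, 3.90-fold higher, but went the other way in the knockdown pair (-1.03). Notum, an enzyme that inactivates Wnt, read 172 before and 99.2 after RA, 3.08-fold lower, and was under 2-fold with the deposited median-normalized values. Tcf7l1, a repressor of pluripotency genes, did not pass 2-fold (-0.23).

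In the BMP list 11 of 16 genes compared were at least 2-fold higher and 0 lower, with a median log2 difference of 1.34, and the increases touched ligand, receptor, transducer and target. Bmp7, a ligand, read 116 before and 440.2 after RA, 4.35-fold higher. Bmp1, a protease that trims collagen and the BMP antagonist chordin, read 124 before and 694 after RA, 6.44-fold higher. Bmpr1b, a receptor, read 83.2 before and 277 after RA, at least 4.46-fold higher, and Bmpr1a, the receptor used in ES cells, read 495 before and 1243 after RA, 2.25-fold higher. Smad1, which receptors phosphorylate, read 525 before and 1494 after RA, 2.61-fold higher. Smad5, its relative, read 445 before and 1277 after RA, 2.62-fold higher. Bmpr1a and Smad5 were under 2-fold with the mean of their probes. Of the Id genes, inhibitors of bHLH factors and direct BMP targets, Id2 read 322 before and 2324 after RA, 7.20-fold higher, and Id3 read 204 before and 728 after RA, 3.38-fold higher. Id1, which sustains self-renewal under BMP, did not pass 2-fold (0.44), and Bmp4 was at -0.08. Msx1, a homeobox gene downstream of BMP in the dorsal neural tube and crest, read 94.2 before and 2164 after RA, 37.1-fold higher, with a smaller value of 1.52 in the knockdown pair. Noggin (Nog), Bmp2 and Bambi were detected on neither array.

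Notch is the pathway that keeps neighbouring neural progenitors from differentiating at once. In its list 8 of 15 genes compared were at least 2-fold higher and 1 lower, with a median log2 difference of 1.01. Hey1, a target, read 187 before and 1583 after RA, 8.86-fold higher. Hes5, the target typical of neural progenitors, read 59.2 before and 329 after RA, at least 5.44-fold higher, but was detected on neither knockdown array. Nrarp, a feedback inhibitor, read 139 before and 559 after RA, 4.33-fold higher. Notch3, a receptor, read 379 before and 1098 after RA, 2.60-fold higher. Notch4, a receptor known from endothelium, read 438 before and 184 after RA, 3.54-fold lower. Dlk1, an imprinted ligand of atypical kind, read 121 before and 6437 after RA, 73.7-fold higher. Of 7 Hedgehog genes compared 3 were higher and 0 lower. Shh, the ligand of notochord and floor plate, read 54.8 before and 302 after RA, at least 4.94-fold higher. Smo, the transducer, read 346 before and 1067 after RA, 2.81-fold higher. The pathway's target genes Gli1 and Ptch1 were detected on neither array.

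**Figure D3:**
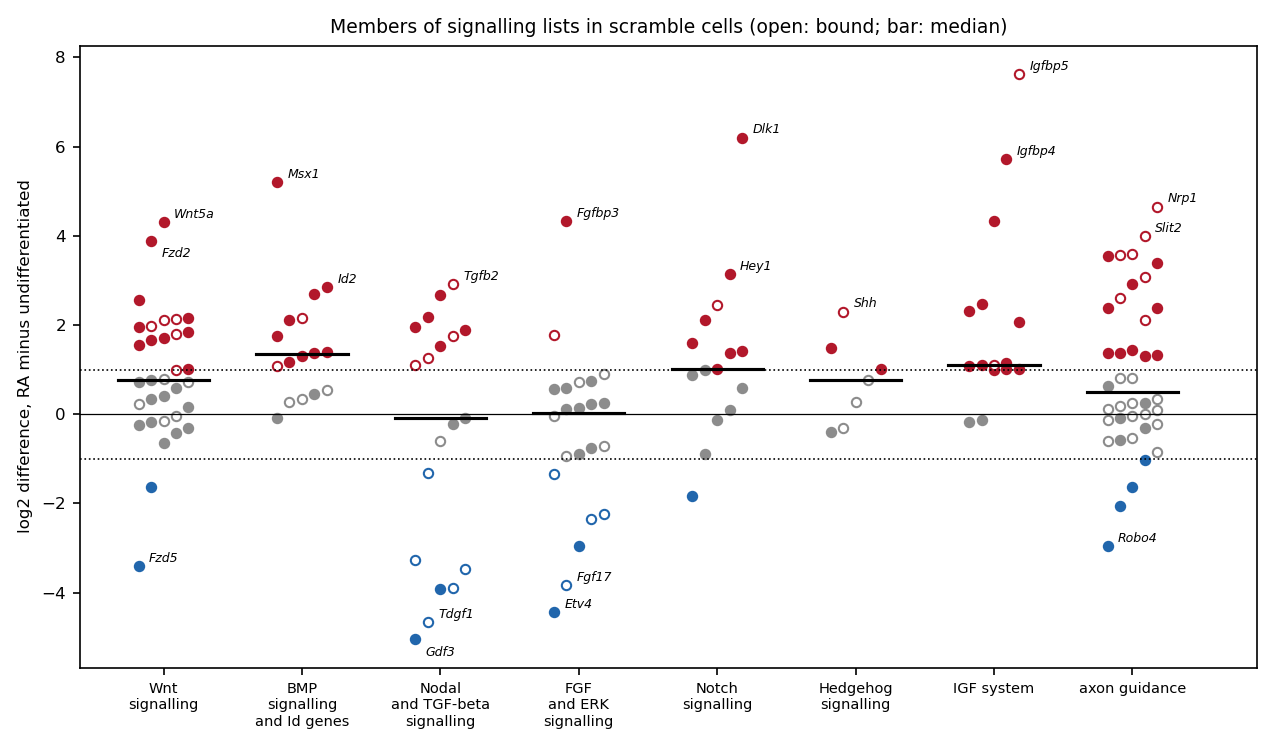
Log2 difference (RA-treated minus undifferentiated scramble cells) of each gene compared in 8 signalling lists, red at or above 2-fold, blue at or below it, open circles for bounds and a bar at the list's median. The BMP, IGF and Hedgehog lists have no member past the lower line, while the Nodal and TGF-beta list has 9 members above and 7 below.

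The insulin-like growth factor system had 13 of 15 genes higher and 0 lower, with a median of 1.11. Several stood close to 2-fold, since the median is itself near the threshold of 1. Igf2, the fetal growth factor, read 1946 before and 40010.0 after RA, 20.2-fold higher. Igf2r, the receptor that clears Igf2, read 351 before and 1552 after RA, 4.19-fold higher. Irs2, which couples insulin receptors to the inside of the cell, read 129 before and 638 after RA, 5.52-fold higher. Igfbp5, a binding protein, read 68.5 before and 9287 after RA, at least 199-fold higher, and Igfbp4 read 105 before and 3687 after RA, 52.8-fold higher. Igfbpl1 read 91.5 before and 341 after RA, 4.96-fold higher, against a log2 difference in the knockdown pair of -0.10, a bound. Igfbp2 (1.15) came under 2-fold with median scaling, and Igf1 (1.12, a bound) under 3 alternative settings. Igf2, Igf2r and others are imprinted, that is, read from 1 parental copy. In the imprinted list 13 of 24 genes compared were at least 2-fold higher and 1 lower, with a median log2 difference of 1.52. H19, a noncoding RNA beside Igf2, read 710.3 before and 7402 after RA, 10.2-fold higher. Mest read 368 before and 5513 after RA, 14.9-fold higher. Grb10, an inhibitor of insulin signalling, read 2351 before and 11337 after RA, 4.86-fold higher. Cdkn1c, a brake on the cell cycle, read 1128 before and 8319.5 after RA, 7.21-fold higher. Phlda2, a growth suppressor of the placenta, was the lower one and read 1845 before and 312 after RA, 7.77-fold lower.

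All 39 Hox genes had a probe, and 21 were compared, of which 16 were higher and 0 lower. The 18 others were detected on neither array, so that no change can be given for them. Of the 21 compared, 19 were detected after RA alone, and a gene seen on that side alone could hardly come out as lower. The counts by group and by cluster below carry the same limit. Among all genes compared, 14.2% were higher and 11.8% lower. Detection followed position in the clusters in part. Low numbers lie at the 3' end of a cluster and pattern the head end of the body axis. Exceptions included Hoxa3 and Hoxd1, detected on neither array, and Hoxa13, detected before RA as well as after it (log2 difference -0.33). Of the 12 genes of groups 1 to 4, 10 were compared and 9 were higher. Of the 11 of groups 5 to 8, 8 were compared and 6 higher. Of the 16 of groups 9 to 13, 3 were compared and 1 was higher, Hoxc9, which read 67.6 before and 171 after RA, at least 2.42-fold higher, and came under 2-fold under 3 alternative settings. By cluster, 7 of the 8 genes compared in cluster b were higher, with 4 of 6 in a, 2 of 4 in c and 3 of 3 in d. Hoxb1, a gene of hindbrain rhombomere identity and a known RA target, read 57.5 before and 587 after RA, at least 10.7-fold higher. Hoxb4 read 61.2 before and 1484 after RA, at least 29.7-fold higher, and Hoxb6 read 61.5 before and 982 after RA, at least 18.7-fold higher. Signals of different Hox genes come from different probes and are not ranked. In cluster d, Hoxd4 was at 5.66 (a bound) in scramble and 2.75 (a bound) in knockdown cells, and Hoxd3 at 3.79 (a bound) and 0.63 (a bound).

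Hox proteins bind DNA together with cofactors of the TALE class, and these were higher too: 7 of 12 genes compared were at least 2-fold higher and 0 lower, with a median log2 difference of 1.43. Meis1 read 171 before and 5377 after RA, 35.9-fold higher, and Meis2 read 268 before and 6884 after RA, 27.1-fold higher. Pbx2 read 278 before and 963 after RA, 3.16-fold higher. Pknox2, a relative of Meis, read 94.7 before and 350.2 after RA, 4.77-fold higher. Meis3 was higher (84.3 and 166), though under 2-fold without background correction, with the deposited median-normalized values and with the larger offset. Tgif1, a repressor that limits RA and Nodal responses, did not pass 2-fold (-0.92). Cdx2 and Cdx4, factors of the tail end that act on posterior Hox genes, were detected on neither array.

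Neural tube patterning genes assign progenitors their place along the dorsal-ventral and head-tail axes. Of 48 with a probe, 21 were compared, 11 were higher and 1 lower. Their median was 1.11. Of the 21, 13 were detected after RA alone, and over the alternative settings the median ran from 0.19 to 2.12. The COUP-TF receptor gene Nr2f2 read 60.2 before and 1023 after RA, at least 19.5-fold higher. Irx3, of the intermediate neural tube, read 100 before and 1237 after RA, 17.8-fold higher. Dbx1, of progenitors that give interneurons, read 69.7 before and 1091 after RA, at least 20.9-fold higher. Lhx1, of early interneurons, read 63.0 before and 458 after RA, at least 8.16-fold higher. Zic1, a dorsal factor, read 67.5 before and 447 after RA, at least 7.93-fold higher. En2, of the midbrain-hindbrain border, was the lower one and read 249 before and 78.9 after RA, at least 5.64-fold lower. Zic1 in the knockdown pair was at -0.07 (a bound), Lhx1 at 0.70 (a bound) and Dbx1 at 1.27 (a bound). The forebrain markers Six3 and Lhx2 were detected on neither array, nor were Pax6, Olig2, Nkx2-2 and Pax7.

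Among neural progenitor markers 9 of 14 genes compared were at least 2-fold higher and 0 lower, with a median log2 difference of 1.2. Of all 14, 8 were detected after RA alone. Slc1a3, a glutamate transporter of radial glia, read 305 before and 3689 after RA, 12.3-fold higher. Sox9, of neural stem cells and crest, read 47.6 before and 461 after RA, at least 8.23-fold higher. Nes, the intermediate filament nestin, read 135 before and 711 after RA, 5.78-fold higher. Vim, the filament vimentin, which mesenchyme also makes, read 375 before and 2167 after RA, 5.67-fold higher. Neurod4, a proneural bHLH factor, read 53.6 before and 231 after RA, at least 3.57-fold higher. Defining markers were missing all the same: Sox1, Sox3, Pax6, Msi1 and Ncam1 were detected on neither array. The neuronal list was divided: 9 of 25 genes compared were at least 2-fold higher and 6 lower, with a median log2 difference of 0.38. Sst, which encodes somatostatin, read 54.0 before and 3583 after RA, at least 76.2-fold higher. Nefm, a neurofilament, read 81.0 before and 857 after RA, at least 16.1-fold higher. Dcx, of migrating neurons, read 68.7 before and 394 after RA, at least 6.78-fold higher. Map2, of dendrites, read 143 before and 788 after RA, 6.02-fold higher. On the other side Nefh, a heavier neurofilament, read 478 before and 71.5 after RA, at least 11.6-fold lower. Mapt, the gene of tau, read 765 before and 128 after RA, 10.8-fold lower. Stmn2 read 1917 before and 464 after RA, 4.97-fold lower, and Ddc, which makes dopamine and serotonin, read 1221 before and 331 after RA, 4.89-fold lower.

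Markers named for neurons were thus detected before RA as well as after it. Tubb3, Snap25, Syt1 and the glutamate transporter gene Slc17a6 and the GABA enzyme genes Gad1 and Gad2 were detected on neither array. In the knockdown pair the neuronal list had 2 higher and 9 lower of 23, and Nefm and Dcx were at 0.70 (a bound) and 0.33 (a bound), against 4.01 and 2.76 in scramble cells, both bounds. Neural progenitors had 4 higher and 0 lower of 9 there.

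Axon guidance molecules, which steer growing axons and migrating cells by attraction and repulsion, were higher in 17 of 40 genes compared and lower in 4. The median was 0.49, and 17 of the 40 were detected after RA alone. Both ligands and receptors were among them. Slit2, a repellent ligand, read 70.0 before and 843 after RA, at least 15.9-fold higher. Its receptor Robo1 read 784 before and 2289 after RA, 2.72-fold higher, while Robo4, the form of blood vessels, read 557 before and 127 after RA, 7.72-fold lower. Nrp1, a receptor for semaphorins and VEGF, read 79.5 before and 1281 after RA, at least 25.2-fold higher. Of the repellent semaphorins, Sema3a read 64.2 before and 362 after RA, at least 6.12-fold higher, and Sema3f read 100.4 before and 567 after RA, 7.56-fold higher. Plxna2, a semaphorin receptor, read 121 before and 553 after RA, 5.23-fold higher. The ephrin ligand Efna5 read 181 before and 1762 after RA, 10.5-fold higher, and Efnb1 read 88.5 before and 679 after RA, 11.8-fold higher. Of the Eph receptors, Epha7 read 63.6 before and 654 after RA, at least 12.1-fold higher, and Epha3 read 63.9 before and 643 after RA, at least 11.9-fold higher. Epha2, the form of ES cells and epithelia, read 316 before and 157 after RA, 3.12-fold lower. Unc5c, a netrin receptor, read 57.4 before and 472 after RA, at least 8.47-fold higher. Epha3 was at only 0.67 (a bound) in the knockdown pair.

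Neural crest, the migratory cell type from the dorsal neural tube, had 6 of 12 genes compared at least 2-fold higher and 1 lower, with a median log2 difference of 1.2. Tfap2b, a crest factor, read 64.3 before and 1052 after RA, at least 20.1-fold higher. Ednrb, the endothelin receptor of crest precursors, read 56.4 before and 1093 after RA, at least 20.9-fold higher. Twist1, of crest and mesenchyme, read 109 before and 429 after RA, 4.68-fold higher. Ets1, of cranial crest, read 156 before and 483 after RA, 3.10-fold higher. Ngfr was lower (259 and 145), though under 2-fold with the deposited median-normalized values. Pax3 was detected on neither array. Of 6 glial markers 2 were higher and 1 lower. Mbp, a myelin protein that other cells make in short form, read 73.1 before and 282 after RA, at least 4.56-fold higher. Gfap, Aqp4, Mog and Mag were detected on neither array.

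Markers of other cell types moved in the same comparison, and their part in the gene groups above was not tested. In the endoderm list 10 of 23 genes compared were at least 2-fold higher and 3 lower, with a median log2 difference of 0.77. Gata6, which starts primitive endoderm, read 163 before and 1615 after RA, 11-fold higher. Foxa1, an endoderm and floor plate factor, read 124 before and 686 after RA, 6.32-fold higher. Cxcr4, of definitive endoderm and neurons, read 70.2 before and 342 after RA, at least 5.71-fold higher. Cldn6, an embryonic claudin, read 514 before and 2722 after RA, 5.11-fold higher. Col4a2, of basement membrane, read 474 before and 2886 after RA, 5.96-fold higher. Amn, of visceral endoderm, read 168 before and 75.8 after RA, at least 3.45-fold lower. Afp, Alb, Ttr and Rbp4, abundant products of visceral endoderm and liver, were detected on neither array. In the mesoderm and muscle list 3 of 13 were higher and 3 lower. Acta2, smooth muscle actin, read 680.3 before and 3379.5 after RA, 4.77-fold higher, and Actc1, cardiac actin, read 102 before and 273 after RA, 3.11-fold higher. Myl4, an atrial and embryonic myosin light chain, read 805 before and 188 after RA, 6.56-fold lower. T, Mesp1, Mixl1, Kdr, Nkx2-5 and Myod1 were detected on neither array.

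Of 7 endothelial and blood markers 3 were higher and 2 lower. Pecam1, which ES cells also carry, read 425 before and 91.8 after RA, 10.1-fold lower, and Tek read 305 before and 103 after RA, 5.73-fold lower. Gata2, a factor of blood precursors and interneurons, read 183 before and 1175 after RA, 6.53-fold higher. Cdh5, Tal1, Gata1 and Ptprc were detected on neither array. In the trophoblast list 6 of 13 were higher and 1 lower. Of the keratin genes, Krt8 read 1493 before and 6325 after RA, 4.25-fold higher, Krt18 read 402 before and 2409.9 after RA, 5.88-fold higher, and Krt19 read 91.4 before and 387 after RA, 5.76-fold higher, all of which simple epithelia make too. Gata3 read 137 before and 549.6 after RA, 4.31-fold higher, while Tfap2c, of trophoblast and germ cells, read 1724 before and 536 after RA, 3.79-fold lower. Cdx2, Hand1 and the placental hormones Prl3d1 and Prl3b1 were detected on neither array. Germ line genes had 2 higher and 6 lower of 11. Tex19.1, a transposon control protein, read 5998 before and 638 after RA, 10.4-fold lower. Tdrd12, of the piRNA pathway, read 528 before and 113 after RA, 8.82-fold lower. Rec8, the meiotic cohesin, read 217 before and 1056 after RA, 4.64-fold higher, alongside Stra8. Sycp1, Sycp3 and Dmc1, which carry out meiosis, were detected on neither array.

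Among fibroblast and mesenchyme markers 6 of 9 genes compared were at least 2-fold higher and 1 lower, with a median log2 difference of 1.58. Of the 9, 5 were detected after RA alone and 1 before RA alone. The 8 other markers with a probe, Twist2, Prrx1, Col1a2, S100a4, Postn, Lum, Fap and Cdh11, were detected on neither array. Of the repressors of epithelial genes, Zeb1 read 338 before and 1107 after RA, 3.0-fold higher, and Zeb2 read 74.8 before and 388 after RA, at least 6.61-fold higher. Thy1 read 352 before and 88.4 after RA, at least 8.26-fold lower. Dcn, the proteoglycan decorin, read 63.3 before and 355 after RA, at least 5.98-fold higher. Zeb1 and Vim were under 2-fold in the knockdown pair, at 0.12 and 0.74. Matrix genes as a wider group had 28 of 59 genes compared at least 2-fold higher and 0 lower, with a median log2 difference of 0.82. Of all 59, 20 were detected after RA alone. Col2a1, the collagen of cartilage and notochord, read 113 before and 1795 after RA, 21.4-fold higher. Col26a1, a minor collagen, read 79.2 before and 1579.6 after RA, at least 31.8-fold higher. Col4a5, of basement membranes, read 63.2 before and 535 after RA, at least 9.78-fold higher. Timp2, an inhibitor of matrix proteases, read 136 before and 1049.8 after RA, 8.65-fold higher, and Mmp2, the protease it binds, read 629 before and 3328 after RA, 5.14-fold higher. Serpinh1, the chaperone that folds collagen, read 206 before and 1362 after RA, 6.63-fold higher. No matrix gene compared was lower by 2-fold.

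Epithelial junction genes had 9 of 23 genes compared at least 2-fold higher and 1 lower, with a median log2 difference of 0.58. Cldn3 read 100.4 before and 629.6 after RA, 8.43-fold higher. Dsp, which anchors keratin at desmosomes, read 119.6 before and 458 after RA, 4.32-fold higher. Esrp1, a splicing factor of epithelia, read 497 before and 1465 after RA, 2.69-fold higher. Cdh1, the gene of E-cadherin, did not pass 2-fold and read 1904 and 1114 (-0.93 on the log2 scale), with -0.02 in the knockdown pair. Epithelial genes (Cldn3, Dsp, Krt8) and mesenchymal genes (Vim, Twist1, Zeb2) were thus higher in the same RNA sample.

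Genes of the DNA methylation machinery had 3 of 17 genes compared at least 2-fold higher and 7 lower, with a median log2 difference of -0.66. Dnmt3l, the cofactor of the de novo enzymes, gave the largest decrease of all genes and read 10926 before and 90.3 after RA, at least 243-fold lower. Zfp57, which keeps imprints methylated, read 1156 before and 294 after RA, 5.29-fold lower. Dppa3, which protects against loss of maternal methylation, read 242 before and 89.9 after RA, at least 5.46-fold lower. The maintenance enzyme Dnmt1 did not pass 2-fold (1323 and 1644), and neither did Uhrf1 (5645 and 4028), its guide to newly copied DNA. Gadd45g read 318 before and 1798 after RA, 5.45-fold higher. Of 24 Polycomb genes, whose complexes silence Hox and other developmental genes, 3 were higher and 6 lower (median -0.59). Phc1 read 7914 before and 1649.9 after RA, 4.76-fold lower, while its relative Phc2 read 414 before and 1214 after RA, 2.69-fold higher. Cbx7, the reader subunit of ES cells, read 970.2 before and 472 after RA, 2.56-fold lower. In the complex that methylates histone H3, Eed read 1962 before and 838 after RA, 2.66-fold lower, and Mtf2 read 2735 before and 1201 after RA, 2.43-fold lower. Its catalytic subunit Ezh2 did not pass 2-fold (-0.39), nor did Suz12 (-0.49). Yaf2 read 118 before and 488 after RA, 4.73-fold higher.

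Of 15 MLL and SET1 complex genes, the activating counterpart to which AKAP95 is linked, 1 was higher and 2 lower (median 0.04, whose sign turned with median scaling and with the deposited median-normalized values). Kmt2b, the MLL2 enzyme gene, did not pass 2-fold (0.04), nor did Setd1a (-0.16). Dpy30, a shared subunit, read 6126 before and 2849.9 after RA, 2.08-fold lower. Histone genes had 2 of 48 genes compared at least 2-fold higher and 12 lower, with a median log2 difference of -0.56. The lower ones were of the replication-dependent clusters. H3c3 read 229 before and 102 after RA, 4.24-fold lower, and H4c11 read 347 before and 190.0 after RA, 2.63-fold lower. The copies within a cluster are close in sequence, so 1 probe may take signal from several. The 2 higher ones were variants made outside S phase. Macroh2a1, the macroH2A variant of silent chromatin, read 1353 before and 4815 after RA, 3.44-fold higher. H1f0, the linker histone of differentiated cells, read 95.9 before and 238 after RA, 2.95-fold higher, but was at 0.06 in the knockdown pair.

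Few genes of cell division passed 2-fold. In DNA replication 1 of 42 genes was higher and 3 lower (median -0.38). In mitosis 1 of 22 was higher and 0 lower (median -0.24). Both medians kept their sign under all 10 alternative settings. Orc1, of the origin recognition complex, read 392 before and 155 after RA, 3.98-fold lower, and Rfc5, of the clamp loader, read 1687 before and 766 after RA, 2.55-fold lower. Mcm4, of the replicative helicase, read 9538 and 7186, and Cenpa, the centromere histone, 8872 and 10263, without passing 2-fold. In the G1 list 6 of 20 genes compared were at least 2-fold higher and 1 lower, with a median log2 difference of 0.31. Ccne1, the cyclin E gene that ES cells express throughout the cycle, read 901 before and 322 after RA, 3.81-fold lower. Cdkn1a, which encodes p21, read 434 before and 1306 after RA, 2.76-fold higher. Cdkn1c, which encodes p57, was named above with the imprinted genes. Mycl, a Myc family member, read 259 before and 1124 after RA, 4.07-fold higher. Ccnd1 sat at the threshold (1674 and 3406, 1.00) and went the other way in the knockdown pair (-1.43), so that of the D cyclins Ccnd2 alone was clearly past it, and Ccnd3 was at -0.31.

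Amino acid metabolism was the metabolic group with the most decreases. In the amino acid response list 2 of 21 genes compared were at least 2-fold higher and 11 lower. The median log2 difference was -1.26, and 4 of the 21 were detected before RA alone. Tdh, which breaks down threonine, a nutrient that mouse ES cells depend on, read 1360.2 before and 62.4 after RA, at least 33.0-fold lower. Mthfd2, of mitochondrial folate metabolism, read 758 before and 157 after RA, 7.95-fold lower. Cth, which makes cysteine, read 341 before and 62.7 after RA, at least 7.97-fold lower. Asns, asparagine synthetase, read 12442 before and 3061 after RA, 3.84-fold lower. Psat1, of serine synthesis, read 5253 before and 2079 after RA, 2.51-fold lower. Atf4, the factor that drives the response, was at -0.68 on the log2 scale. Of 20 amino acid transporters compared 1 was higher and 5 lower. Slc7a3, for arginine and lysine, read 3887 before and 121 after RA, 55.0-fold lower. Slc7a5, for leucine and other large amino acids, read 5106 before and 1452 after RA, 3.68-fold lower. Slc38a5, for glutamine, read 399 before and 126 after RA, 5.47-fold lower. The higher one was the glutamate transporter gene Slc1a3 of the progenitor list.

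The respiratory chain, ribosomal proteins and lipid synthesis had smaller shares of genes past 2-fold than all genes compared (14.2% higher and 11.8% lower). Glycolysis was near the shares of all genes. It had 3 of 21 genes compared at least 2-fold higher (14.3%) and 2 lower (9.52%), with a median log2 difference of 0.26. Pfkp, a form of the enzyme that commits sugar to glycolysis, read 1137 before and 152 after RA, 12.2-fold lower. Eno3, the muscle enolase, read 241 before and 1212 after RA, 4.85-fold higher. Gapdh, Eno1 and Ldha did not pass 2-fold, at 0.05, 0.26 and 0.26 on the log2 scale. Of 73 genes of the respiratory chain 0 were higher and 3 lower (median -0.07). Of 61 ribosomal protein genes 2 were higher and 3 lower (median 0.04, whose sign turned under 2 settings). Among these Rpl22 read 1118 before and 4800.5 after RA, 4.12-fold higher, and Rps4l, a copy of an X-linked ribosomal gene, read 5973 before and 974 after RA, 6.59-fold lower. In cholesterol and lipid synthesis 2 of 25 were higher. Scd2, a fatty acid desaturase of brain, read 173 before and 519.8 after RA, 2.92-fold higher. The lysosome list had 13 of 38 genes compared at least 2-fold higher and 2 lower, with a median log2 difference of 0.48. Lamp2, a main protein of the lysosomal membrane, read 1028 before and 5246 after RA, 4.86-fold higher. Npc2, which moves cholesterol out of lysosomes, read 352 before and 1058 after RA, 2.72-fold higher. Manba, which cleaves mannose from glycans, read 2599 before and 396 after RA, 8.01-fold lower.

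Of 15 MHC class I genes 3 were higher (20%) and 1 lower (6.67%), against 14.2% and 11.8% of all genes compared. B2m, the light chain of class I molecules, read 674 before and 2222 after RA, 3.11-fold higher. Psmb10, of the immunoproteasome, read 900.0 before and 406 after RA, 2.85-fold lower. The interferon list had 4 higher and 2 lower of 20, near the shares of all genes. Ifitm1, a membrane protein that ES cells express without interferon, read 248 before and 93.0 after RA, 5.43-fold lower. Of 16 hypoxia targets 4 were higher (25%) and 0 lower. Vegfa, which attracts blood vessels and binds Nrp1, read 349 before and 2138 after RA, 6.08-fold higher. Ddit4, an inhibitor of mTOR, read 672 before and 2322 after RA, 3.27-fold higher. P53 targets and apoptosis genes had 6 higher (26.1%) and 2 lower (8.70%) of 23. Plk2, a kinase that p53 induces, read 275 before and 733 after RA, 2.40-fold higher. Of 17 housekeeping genes 2 were higher (11.8%) and 0 lower, with B2m among the higher ones. Eef1a1, Ppia and Actb did not pass 2-fold, at -0.06, -0.30 and -0.43 on the log2 scale.

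**Figure D4:**
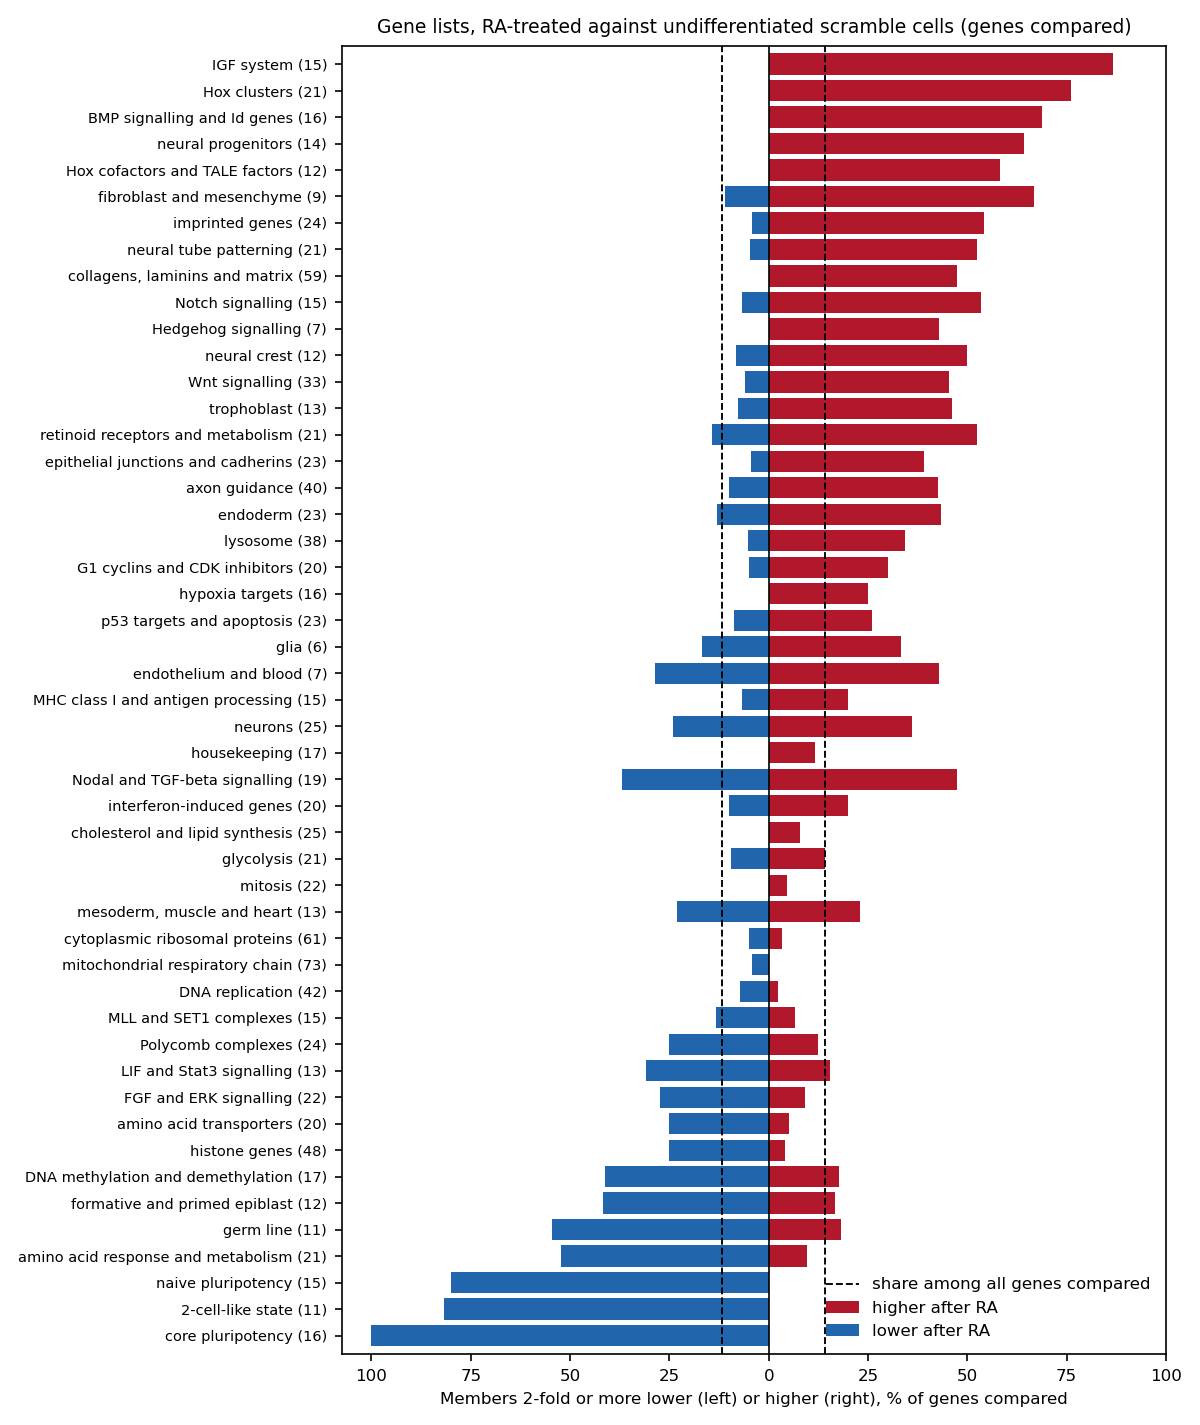
Share of the genes compared in each of 49 lists that were at least 2-fold higher (red, right) or lower (blue, left) in RA-treated than in undifferentiated scramble cells, with the number compared in brackets and dashed lines at the shares of all 9509 genes. Core pluripotency reaches 100% lower and the IGF system 86.7% higher, while ribosomal, respiratory chain and mitosis genes lie inside the dashed lines.

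By chromosome, the share of genes higher after RA ran from 11.6% on chromosome 12 to 17.9% on X, next to 17.8% on chromosome 14. The share of lower genes ran from 8.15% on chromosome 12 to 16.1% on chromosome 6. On chromosome 7 it was 14.8%, and there lower genes outnumbered higher ones, 111 against 87, as they did on chromosome 6, 74 against 65. On the other 18 chromosomes higher genes were the more numerous.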

How the data were processed

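RNA of 4 E14 cultures was measured on Illumina bead arrays, 1 array per group, and groups were taken from the labels. The authors deposited the average bead signal per probe as an intensity with its detection p-value, per the file headers, and a second table with the ratio of each signal to its array's median. The deposited tables held the same signals for all 25697 probes (relative tolerance 1e-05). The scanner software, its version and any background subtraction are not given in the sources used here. Of the probes, 23876 (92.9%) were named through a RefSeq accession, 1438 through a symbol or synonym and 383 by the file's symbol alone, which updated 7836 symbols.

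From the deposited intensities, log2 values were computed with limma 3.58.1 (R 4.3.3) by neqc, with negative controls inferred from the detection p-values, an offset of 16 and quantile normalization over the 4 arrays. Further steps used Python 3.11.15, numpy 2.4.6, pandas 2.3.3 and matplotlib 3.10.9. Each gene was represented by 1 probe, that of highest mean log2 value across the 4 arrays (5016 genes had more than 1 probe). A gene said to be detected on neither array is one whose chosen probe was not detected there. Genes with a detection p-value under 0.01 on at least 1 scramble array were compared, and a side that was not detected was raised to that array's lowest detected log2 value, which makes the difference a bound. The same was done for the knockdown pair. Of these steps, the background correction and normalization alone were checked on simulated data, with known folds set for bright probes. Promoter windows came from RefSeq (GRCm38.p6).

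No test between groups was possible, and the number of arrays limits the precision. A difference counted as past 2-fold at 1 or more on the log2 scale. Genes were named by rule: the 30 largest differences each way, per list up to 8 past 2-fold in each direction and the 3 brightest not past it, Akap8, Pou5f1, Nanog and Sox2, genes whose probes passed 2-fold in opposite directions, and genes opposite in both pairs. That gave 495 genes, of which the text describes a part, and some genes are not reported here. Another 25 genes and the markers named as detected on neither array were chosen after their values were seen. Among the 25 were Cyp26a1, Hoxb1, Hoxc9, Hoxd3, Axin2, Fzd7, Ror2, Robo1 and Mmp2. The members and gene lists were chosen with earlier results of these data known. The alternatives tried changed the background correction, normalization, offset, probe choice, detection filter and bounds.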

Additional observations from a re-analysis of the deposited data

Results flagged for a closer look

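Of 9164 genes compared in both pairs, 6 passed 2-fold in opposite directions after RA in scramble and in knockdown cells. With 1 array a group this difference was not tested. Given as the scramble minus the knockdown log2 difference, it was 2.99 for Sp5, 2.78 for Fez1 and 2.43 for Ccnd1, which were higher in scramble and lower in knockdown cells. It was -2.83 for Mageb4, -2.71 for Rbm44 and -2.27 for Ccdc172, which were lower in scramble and higher in knockdown cells. Ccnd1 and Ccdc172 came under 2-fold in scramble cells under at least 1 alternative setting.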

How the results depend on the processing

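No paired analysis was possible because each group has 1 array, and for the same reason no replicate could be left out. All 10 alternative settings kept more genes higher than lower, with 1009 to 1607 higher (1352 as reported) and 694 to 1300 lower (1118 as reported). The 694 lower genes came with the authors' deposited median-normalized values, and higher genes then made up 62.3% of those past 2-fold (54.7% as reported). The cause was not tested. Without background correction 1009 genes were higher and 792 lower, and without bounds 1607 and 1300. Of 378 named genes past 2-fold, 307 stayed past it in all 10 settings and 71 came under it in at least 1. Adarb1 turned from 1.09 to -0.40 on the log2 scale with the mean of all its detected probes, whose differences ran from -1.32 to 1.09. List medians turned sign in some settings for the FGF, MLL, Nodal, ribosomal, housekeeping, interferon and mesoderm lists, which were within 0.1 of 0, for the glial list (0.33 to -0.29 with detection on both arrays) and for the endothelial list (0.91 to -0.0038 with no detection filter). The Nodal median was 1.54 with detection on both arrays. With no detection filter, which adds genes detected on neither array, the medians of 12 lists came under 1 in size. Among these the Hox median went from 3.43 to 0.40, the imprinted from 1.52 to 0.41, the fibroblast from 1.58 to 0.55, the BMP from 1.34 to 0.58 and the neural tube from 1.11 to 0.19. The matrix median moved from 0.82 to 0.23 there, and the retinoid median was 0.63 with detection on both arrays. Signals near the background limit genes detected on 1 array to bounds.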
